A study of Mus musculus with 8 samples.

Results

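Il1a and Il1b, which encode the inflammatory cytokines interleukin 1 alpha and interleukin 1 beta, and Il1rn, which encodes the receptor antagonist that blocks both, were followed through peak lists of anti-IRF5 CUT&Tag in mouse macrophages. A peak counted for a gene when the deposited annotation gave that gene as the nearest one or put the peak in the gene's Promoter class. These 3 of 20824 genes named in the files held 25 of 105945 peaks in the lists of the 4 single libraries and 12 of 43714 peaks in the 2 lists of whole conditions. A gene counts as named when it is the nearest gene of at least 1 peak in any of the 6 lists. Genes nearest to no peak are left out, so shares of named genes are not shares of all genes. The genes were chosen by their names with the peak calls of all 6 lists known, so calls and peak heights at them are given as a description, without a test.

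The cells were wild-type bone marrow-derived macrophages, grown from marrow precursors in culture, which had been stimulated with CpG (libraries CpG 1 and CpG 2) or had received PBS (libraries control 1 and control 2). CpG DNA is the ligand of the endosomal receptor TLR9, and IRF5 is a transcription factor activated below TLR9 through the adaptor MyD88. In CUT&Tag, an antibody steers a transposase that cuts and tags the DNA around the bound protein. The labels give neither strain, dose, duration nor whether the 2 libraries of a condition came from separate animals or cultures, and the 4 IgG libraries of the series enter here only as the background of the peak calls.

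The lists held 13553 peaks in CpG 1, 25851 in CpG 2, 29226 in control 1 and 37315 in control 2. Relative depth was taken as the lowest background of a list divided by the length of its shortest peak, set against CpG 2. It was 1.59 in CpG 1, 1.11 in control 1 and 1.13 in control 2, so CpG 1 had the greatest depth and the shortest list. Of 8 macrophage marker genes, 7 were named. Of these, 3 had a Promoter-class peak in CpG 1 and 6 in each of the other libraries. Adgre1, Cd68 and Cebpa had one in all 4 libraries and Lyz2 in none. None of the named B cell markers had one, against 1 named T or NK cell marker and 1 named neutrophil marker in control 2 and 1 dendritic cell marker, Batf3, in both control libraries. With 2 libraries on each side, an exact permutation test could not go below p = 0.333.

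Interleukin 1 alpha and beta both signal through the receptor encoded by Il1r1, and the antagonist occupies the same receptor without signalling. Macrophages transcribe all 3 genes after Toll-like receptor stimulation. Interleukin 1 beta is made as a precursor that caspase-1 cleaves on inflammasomes, whereas the precursor of interleukin 1 alpha is itself active and can stay in the cell or act after release.

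The 3 genes do not form 1 cluster on chromosome 2. In the files' coordinates, for which no source used here names a genome build, Il1a (ENSMUSG00000027399) spans bases 129141529 to 129151892 and Il1b (ENSMUSG00000027398) bases 129206489 to 129213059, both on the minus strand and 54.6 kb apart. Il1rn (ENSMUSG00000026981) lies on the plus strand at bases 24226864 to 24241506, 104.9 Mb away from Il1a. Distances below run along each gene's own strand from its annotated start, with upstream positions negative.

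The height of a peak is given as the fragments stacked at its summit, and its fold enrichment, as the authors' peak caller gave it, is that height plus 1 over the background plus 1. The background worked back from these values is an IgG level at the peak or, for many peaks, the lowest value of the list, a floor they share. The heights in a condition's list are sums over both of its libraries. The Promoter class is that of the deposited annotation, and a percentile ranks a peak by fold enrichment within its own list.

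In CpG 1 the 3 genes had 4 peaks, in CpG 2 6, in control 1 5 and in control 2 10, a mean of 5 ± 1.41 with CpG and 7.5 ± 3.54 without (SD, n = 2 each). The difference of -2.5 peaks was smaller than the SD of the control libraries. Relative to the length of the lists, CpG 1 had 2.95 such peaks per 10000, CpG 2 2.32, control 1 1.71 and control 2 2.68. Peaks that overlapped by at least 1 bp in different libraries were joined, which gave 13 regions. All 4 libraries called 3 of them, where 10.1% of all 55621 regions of the series were called in all 4. CpG 1 and CpG 2 but no control library called 1 (1.15% of all regions), and none had the opposite pattern (8.7% of all regions). A further region was missing only from CpG 1 (12.2% of all regions). Taken by gene, Il1b and Il1rn had a peak of some kind in all 4 libraries, as 26.3% of named genes did, and Il1a had none in control 1. The remaining 8 regions were each called in 1 library (55.9% of all regions), 6 of them in control 2. Without control 2, the longest list, 8 regions were left.

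These counts changed with the lists used. The control-only count was 3 in the condition lists, 6 without control 1, 2 without control 2 and 1 without CpG 2. The CpG-only count was 2 without CpG 1 or without control 2. With all lists shortened to 13553 peaks, 1 region was called in all 4 libraries and the difference in peaks was 0.5. That difference was -5 without control 1 and 0 without control 2.

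**Figure D1:**
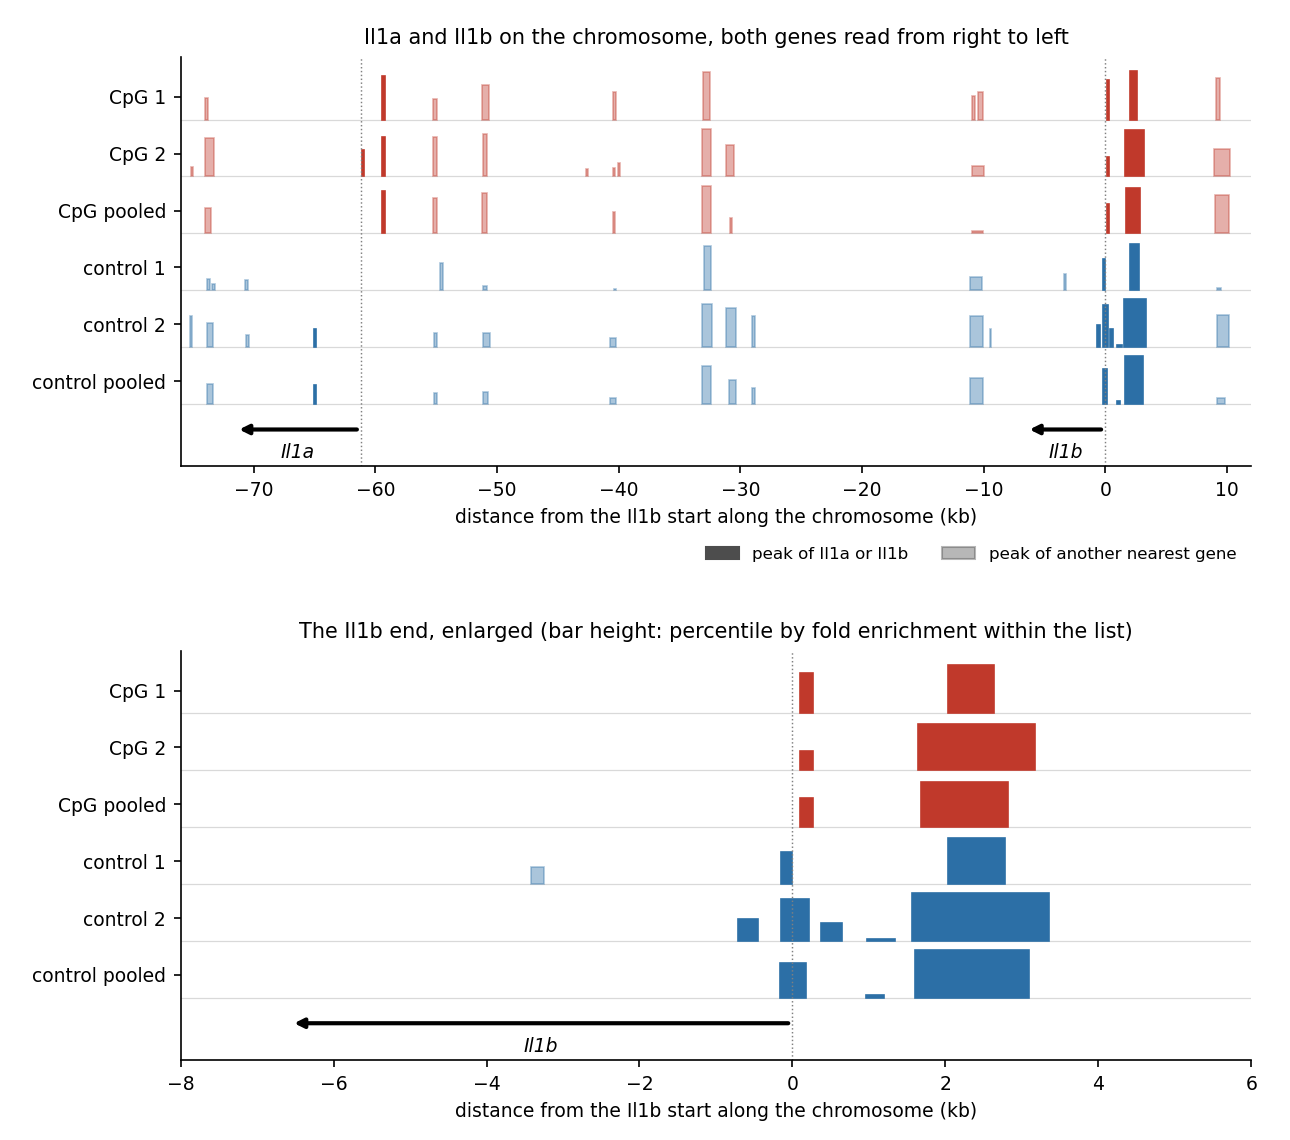
Peaks around Il1a and Il1b in the 4 library lists and the 2 condition lists, by distance from the Il1b start along the chromosome (kb). Bar height is the percentile by fold enrichment within the list, dark bars are peaks of Il1a or Il1b and pale bars have another nearest gene. A dark bar stands 1.85 kb upstream of the Il1a start in the CpG lists and in no control list, and the tallest dark bars stand 2.4 kb upstream of the Il1b start in every list.

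Il1a was the gene whose calls separated the conditions. A region 1.85 kb upstream of its start (chr2:129153611-129153877 in the files' coordinates) was called with CpG in each library, and neither control library nor the control condition's list had a peak there. CpG 1 had 22 fragments over the summit and a fold enrichment of 7.67 over background, and CpG 2 had 20 fragments and 9.30. The summits lay 28 bp apart, and the CpG condition's list had 41 fragments with a fold enrichment of 8.73. By fold enrichment the peak stood at percentile 89.7 of the CpG 1 list and 82.3 of the CpG 2 list. The background was 2 IgG fragments, from the IgG fragments that both libraries share. The control lists give no height at uncalled positions, so the size of the difference is not known.

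The peaks 1.85 kb upstream of Il1a are themselves of the Promoter class. By that class the gene was therefore also called in CpG 1 and CpG 2 and not in control 1 or control 2, which repeats the calls above. This pattern was that of 0.61% of the named genes. Over all named genes, promoter-class peaks were less frequent in the CpG lists, at 10.4% of named genes in CpG 1 and 22.2% in CpG 2, against 24.1% in control 1 and 28.6% in control 2. Within 1 kb of the Il1a start, however, only CpG 2 had a summit, 205 bp upstream, with 11 fragments, a fold enrichment of 6.36 and percentile 55.6. Inside the gene, control 2 alone had a peak 3748 bp past the start, with 10 fragments and a fold enrichment of 5.46. The control condition's peak there held 18 fragments, which leaves at least 8 for control 1, whose own list has no peak there. At the far end of the gene, in the 3′ untranslated region, control 1 had a peak of 8 fragments and control 2 one of 9. These peaks overlapped and no CpG library had a peak there, so the region was called in the control libraries only. Neither condition's list had a peak there. Both peaks were assigned to the overlapping non-coding gene Gm14023 and so lay outside the counts for Il1a.

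The 250 bases before the Il1a start are shown because the CpG 2 peak covered 65.6% of them, from 272 to 87 bases upstream. The sequence is from RefSeq (GRCm38.p6, chr2:129309973-129310222, minus strand, read 5′ to 3′), and in it the distance from start to gene end is 10363 bp, as in the files. Capitals mark an AP-1 motif (TGANTCA, bases -12 to -6) and a PU.1 motif (GAGGAA, -41 to -36) inside a C/EBP motif (TTNNGNAA, -43 to -36), which all lie between the peak and the start.
Il1a: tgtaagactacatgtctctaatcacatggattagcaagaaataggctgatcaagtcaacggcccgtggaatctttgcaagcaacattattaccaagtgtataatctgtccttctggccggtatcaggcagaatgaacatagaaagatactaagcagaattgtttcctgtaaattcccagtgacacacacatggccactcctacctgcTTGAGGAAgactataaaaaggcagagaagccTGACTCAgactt

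Both strands were searched for 5 motifs. Among 32851 RefSeq windows of this length, the AP-1 letters occurred in 6.75%, the PU.1 letters in 23.3% and the C/EBP letters in 36.8%. The interferon-stimulated response element (ISRE) letters, GAAA and GAAA with any 2 bases between, the kind of site that interferon regulatory factors bind, occurred in 2.98% of windows and the NF-kB letters, GGGA and CC with any 4 bases between, in 17.6%. Neither was in the Il1a window, which does not reach the region 1.85 kb upstream. The sequences of that region and of those 2.4 kb upstream of Il1b and 4.7 kb into Il1rn were not searched. No genome of the files' build was at hand to read them. A match is a description of the letters and was not related to binding.

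Il1b carried the strongest of the peaks, 2.4 kb upstream of its start in all 4 libraries (chr2:129214626-129216413 in the files' coordinates, 1788 bp after joining). CpG 1 had 56 fragments at a fold enrichment of 14.3 and CpG 2 had 57 at 16.5. Control 1 had 30 fragments at 12.2 and control 2 had 73 at 27.2. The conditions overlapped, with both CpG libraries between the control libraries. Within its own list the peak stood at percentile 99.6 in CpG 1 (rank 56) and 96.1 in CpG 2 (rank 1017), and at 95.9 in control 1 (rank 1188) and 98.8 in control 2 (rank 436). Of the 5599 regions called in all 4 libraries, 64 (1.14%) stood at percentile 95.9 or above in each of the 4 library lists. The CpG condition's list had 104 fragments at a fold enrichment of 10.8 and percentile 93.0, over 5 IgG fragments. The control condition's list had 99 fragments at 20.8 and percentile 98.5. In the library lists the background was low, at 3 IgG fragments in CpG 1, 4 in CpG 2 and 2 in control 2.

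The same bases lie in an exon of Il1bos (ENSMUSG00000074805), a non-coding gene on the opposite strand that overlaps the Il1b promoter. CUT&Tag does not tell strands apart, so the peak belongs to either gene. It also lies beyond the Promoter class, and a count of promoter peaks for Il1b therefore leaves it out. The called stretch was 599 bp long in CpG 1, 1531 bp in CpG 2, 735 bp in control 1 and 1788 bp in control 2, and so varied more between libraries of 1 condition than between conditions.

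At the Il1b start itself the peaks were small. CpG 1 had a summit 155 bp upstream with 17 fragments and a fold enrichment of 6.69, and CpG 2 one 193 bp upstream with 11 fragments and 5.63. Control 1 had its summit 111 bp inside the gene with 12 fragments and 6.51, and control 2 had one 132 bp upstream with 20 fragments and 10.4. All 4 libraries thus had a summit within 1 kb of the start. The control 1 peak overlapped neither CpG peak and joined the region only through the wider control 2 peak. It was filed as intronic, which left Il1b with promoter-class peaks in CpG 1, CpG 2 and control 2, a pattern shared by 1.01% of named genes. Among the libraries, control 2 alone had further small peaks 493 bp inside the gene (11 fragments), 385 bp upstream (10 fragments) and 1002 bp upstream (15 fragments, at percentile 4.07 of its list). Overlapping the last of these, the control condition's list had a peak of 23 fragments. That leaves at least 8 for control 1, whose own list has no peak there.

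The Il1b start window is shown for comparison with Il1a (RefSeq, GRCm38.p6, chr2:129371140-129371389, minus strand, read 5′ to 3′). The CpG 1 peak covered 59.6% of it, the CpG 2 peak 58.8%, the control 2 peak 89.2% and the control 1 peak none. Capitals mark its 1 match among the 5 motifs, C/EBP at bases -91 to -84, which the control 2 peak covers and the CpG peaks, ending 102 bases upstream in CpG 1 and 104 in CpG 2, do not.
Il1b: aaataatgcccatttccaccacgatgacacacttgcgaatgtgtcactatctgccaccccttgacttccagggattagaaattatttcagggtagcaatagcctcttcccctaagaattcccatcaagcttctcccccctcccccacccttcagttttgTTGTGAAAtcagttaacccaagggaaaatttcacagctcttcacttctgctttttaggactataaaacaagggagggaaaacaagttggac

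Il1rn had no promoter-class peak with CpG and its most regular signal lay inside the gene. A region 4.7 kb past the start (chr2:24231170-24231878 in the files' coordinates) was called in all 4 libraries. CpG 1 had 19 fragments at a fold enrichment of 8.64 and CpG 2 had 14 at 6.65, against 17 at 6.68 in control 1 and 18 at 7.02 in control 2. It reached percentile 94.4 of the list in CpG 1 and 59.4 in CpG 2, against 68.9 in control 1 and 64.8 in control 2. The folds thus overlapped between conditions, with CpG 1 highest and CpG 2 lowest.

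A region 8.4 kb past the Il1rn start (chr2:24234787-24235387) was called in CpG 2, control 1 and control 2 and not in CpG 1. CpG 2 had 24 fragments and a fold enrichment of only 4.63, over a background of 7 IgG fragments. Control 1 had 13 fragments at 5.20 and control 2 had 28 at 10.7, each over 2 IgG fragments. The CpG condition's peak, with its summit 1 bp from that of CpG 2, had 51 fragments, which leaves 27 for CpG 1. CpG 1 thus had fragments there although its list has no peak. In the control condition's list the peak had 41 fragments, the sum of both libraries. The CpG condition's list also had a background of 7 IgG fragments there, against 2 in the control condition's list. CpG 1 has no peak and so no listed background value, but it was set against the same IgG fragments as CpG 2. The part of the IgG background in the missing call was not tested.

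This region lies beside internal starts of Il1rn. RefSeq gives transcripts that begin 8431 and 8511 bp past the first start, and the summits were 50 to 54 bp upstream of the first of these by distance from the gene start. The gene's length differs by 11 bp between the files and RefSeq, and measured from the gene end the distance was 61 to 65 bp. Il1rn is known to make a secreted antagonist and intracellular forms from alternative first exons. The 250 bases before the first internal start are shown because these summits fall within them (RefSeq, GRCm38.p6, chr2:24345041-24345290, plus strand, read 5′ to 3′). Capitals mark a C/EBP motif at bases -81 to -74, and none of the other 4 motifs was found.
Il1rn, internal start: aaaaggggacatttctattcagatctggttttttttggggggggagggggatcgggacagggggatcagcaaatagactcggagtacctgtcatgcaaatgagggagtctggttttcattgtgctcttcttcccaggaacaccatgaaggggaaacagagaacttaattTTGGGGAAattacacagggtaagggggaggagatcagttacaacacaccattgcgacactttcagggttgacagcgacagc

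In the window before the first Il1rn start, an NF-kB motif lay at bases -54 to -45 and an AP-1 motif at -141 to -135, and no ISRE was found. Among the libraries, control 2 alone had promoter-class peaks for Il1rn, a pattern of 6.3% of named genes. One was 1456 bp upstream with 16 fragments and a fold enrichment of 8.44, the other 837 bp upstream with 10 fragments and 5.46. Overlapping the first, the control condition's list had a promoter-class peak 1121 bp upstream with 21 fragments. That leaves at least 5 for control 1, whose own list has no peak there. Control 1 alone had a small peak 9591 bp past the start with 11 fragments.

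**Figure D2:**
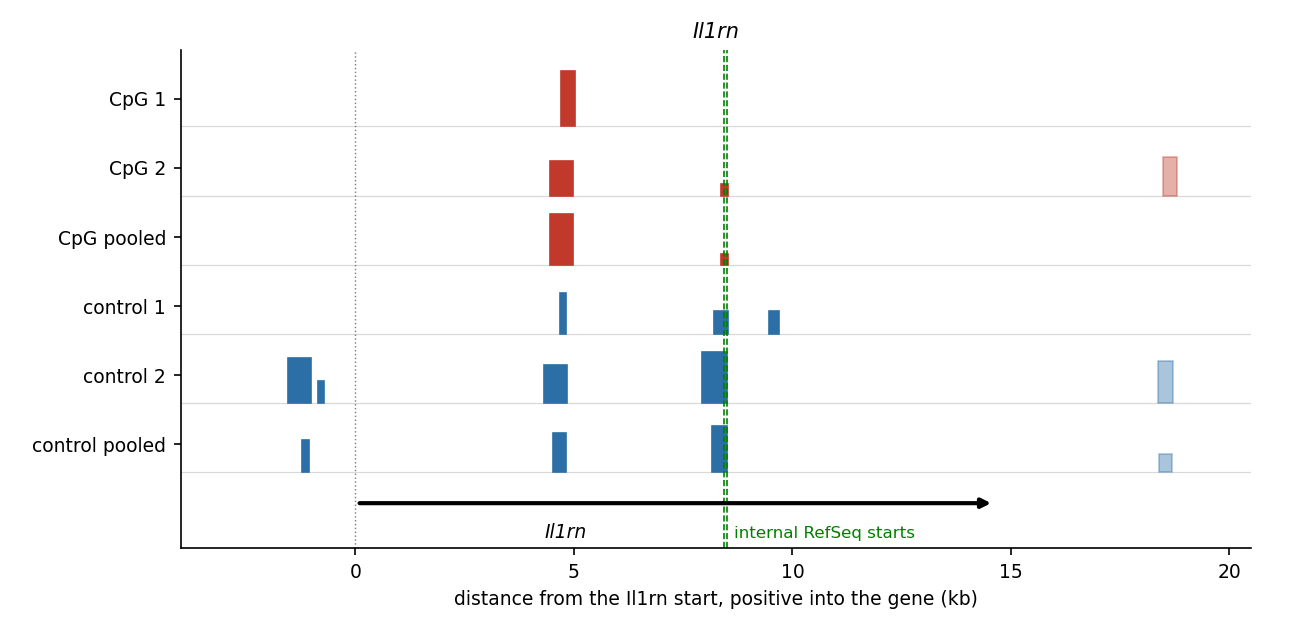
Peaks around Il1rn in the 4 library lists and the 2 condition lists, by distance from its start (kb), with bar height as the percentile by fold enrichment within the list. The region at 4.7 kb appears in all 4 libraries, that at 8.4 kb is missing from CpG 1, and peaks upstream of the start appear in control 2 and the control condition's list.

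**Figure D3:**
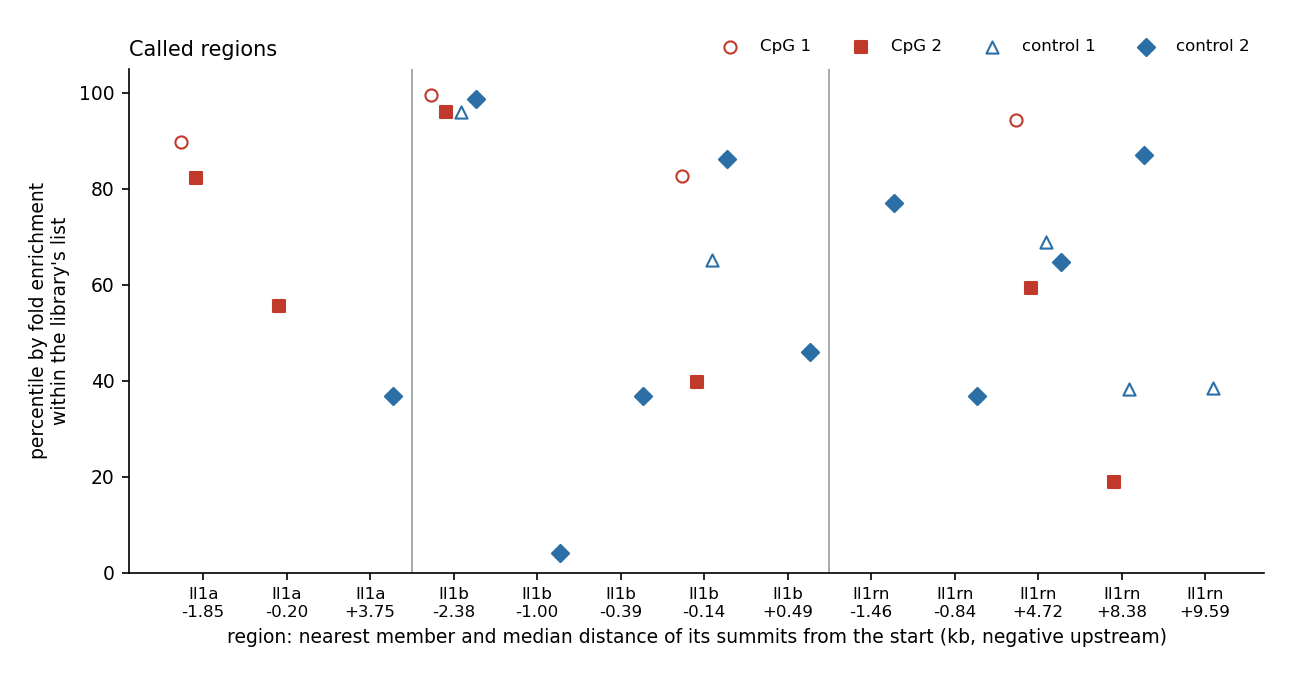
Percentile by fold enrichment, within its own list, of the peak of each library in each of the 13 regions. Of the regions in all 4 libraries, the one 2.4 kb upstream of Il1b stays at percentile 95.9 or above, while those at the Il1b start and 4.7 kb into Il1rn range from 39.7 to 86.3 and from 59.4 to 94.4.

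Heights can be set side by side only after depth is allowed for. Summit fragments were divided by the relative depth of the library, a calculation chosen after the peak values had been seen. Over the 5599 regions in all 4 libraries, the CpG mean was lower than the control mean by a median log2 difference of -0.38 (quartiles -0.62 and -0.14), and both CpG libraries were below both control libraries in 23.1%. CpG 2 exceeded CpG 1 by a median ratio of 2.16, and control 2 exceeded control 1 by 1.36.

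At 2.4 kb upstream of Il1b the scaled height was 35.3 in CpG 1 and 57 in CpG 2, against 27.1 in control 1 and 64.7 in control 2. The means were 46.2 ± 15.3 with CpG and 45.9 ± 26.6 without (SD, n = 2 each), with overlapping groups. At the Il1b start CpG 1 had 10.7 and CpG 2 had 11, against 10.8 in control 1 and 17.7 in control 2, which also overlapped. At 4.7 kb into Il1rn CpG 1 had 12 and CpG 2 had 14, against 15.3 in control 1 and 15.9 in control 2. This region was lower in both CpG libraries, with a log2 difference of -0.27, smaller in size than the median of the 5599 regions. At 8.4 kb into Il1rn, with the CpG 1 value derived from the condition's list, CpG 1 had 17.0 and CpG 2 had 24, against 11.7 in control 1 and 24.8 in control 2. None of these 4 regions was higher in both CpG libraries than in both control libraries, where 1.23% of the 5599 regions were. The other 9 regions, the one 1.85 kb upstream of Il1a among them, lack a height in at least 1 library and were not compared.

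**Figure D4:**
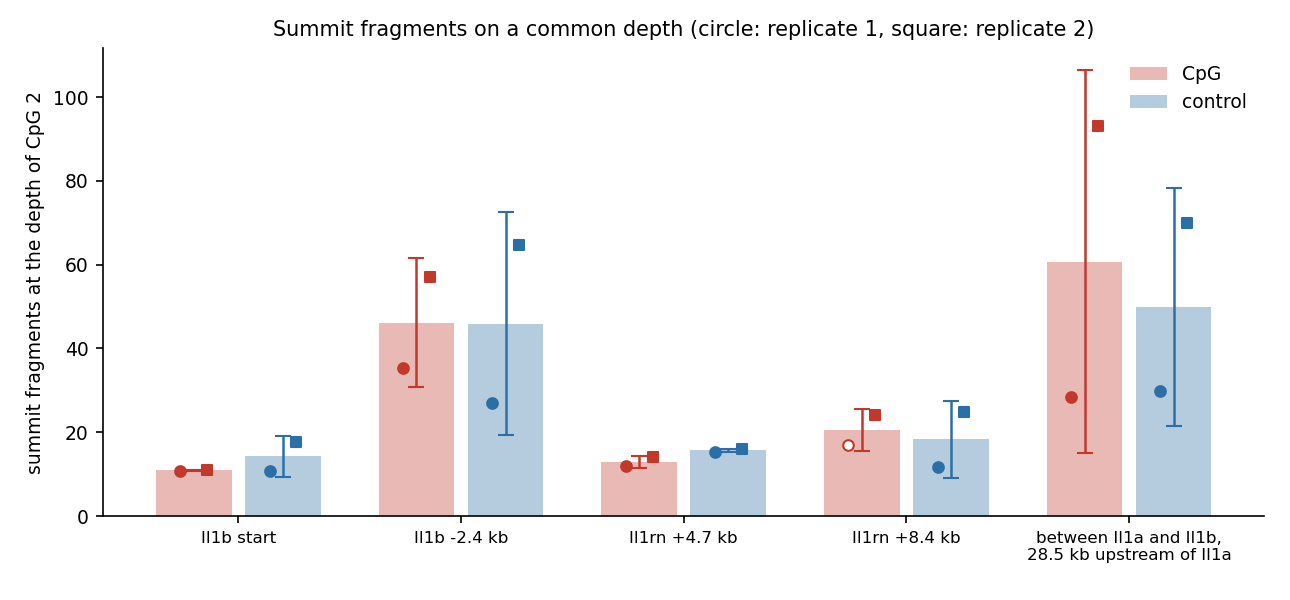
Summit fragments scaled to the depth of CpG 2, with CpG left of control. Shown are the Il1b and Il1rn regions with a value in all 4 libraries, and the strongest such region between Il1a and Il1b. Bars are means, error bars the SD of 2 libraries, circles replicate 1 and squares replicate 2, and the open circle is the CpG 1 value derived from the condition's list. In the regions shown, library values overlap between conditions except 4.7 kb into Il1rn, where CpG had 12 and 14 against 15.3 and 15.9 in control.

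The stretch from 100 kb before to 100 kb past the Il1a and Il1b pair held 32 regions, 8 of them counted for these genes, and 8 of the 32 were called in all 4 libraries. The 54.6 kb between the genes held 13 regions, with 4 called in all 4 libraries. The strongest of these lay 28.5 kb upstream of the Il1a start (chr2:129179939-129180707), where the annotation names the small gene Gm25703 as nearest. CpG 1 had 45 fragments and CpG 2 had 93, against 33 in control 1 and 79 in control 2. The fold enrichment was 12.8 and 26.8 with CpG, against 9.61 and 11.4 without. The background was 2.60 in CpG 1 and 2.51 in CpG 2, against 2.54 in control 1 and 6.02 in control 2. The fold in control 2 thus stands over a higher background. Scaled to depth the region had 28.4 and 93 with CpG, against 29.8 and 70.0 without, which overlap. The region 10.3 kb upstream of Il1a (chr2:129161855-129162474) had 35 and 44 fragments with CpG, against 30 and 44 without. Its IgG background was among the highest here, at 5 fragments in each CpG library, against 8 and 9 in the control libraries.

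Around Il1rn, the stretch with 100 kb on each side held 10 regions, of which 5 were counted for Il1rn and 2 were called in all 4 libraries. The second of these lay 30.1 kb upstream of Il1rn (chr2:24196220-24197180), nearest to Il1f10, another gene of the interleukin 1 family. It had 21 and 36 fragments with CpG, against 19 and 50 without. The other genes named as nearest in both stretches were Ckap2l, Gm14039, Spcs2-ps, Gm14024, Psd4, Gm13411, A730036I17Rik and Gm4430.

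Of a list of 39 further gene names of the interleukin 1 pathway, 22 were named in the files. The rest were nearest to no peak under the listed name, so the shares below leave them out. Promoter-class peaks were present at 4 of the 22 in CpG 1 and 8 in CpG 2, against 6 in control 1 and 11 in control 2. As shares these are 18.2% and 36.4% with CpG, against 27.3% and 50% without, and they stand beside 10.4%, 22.2%, 24.1% and 28.6% of all named genes in the same order of libraries. None of the 22 had the CpG-only pattern of Il1a, and Tab3, which encodes a binding partner of the kinase TAK1, had the control-only one, as did 4.36% of all named genes. Il18, Nlrp3 and Myd88 had a promoter-class peak in all 4 libraries (5.51% of all named genes).

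Among the other ligands, only Il18, a cytokine also released after caspase-1 cleavage, had promoter-class peaks, with a fold enrichment of 9.34 and 10.1 with CpG, against 3.13 and 8.44 without. Among receptors and decoys, Il1r1, the signalling receptor, had 4.75 and 6.89 with CpG, against 7.21 in control 2 and no peak in control 1. Il1rl2, the interleukin 36 receptor, and Il18bp, the decoy of interleukin 18, had one only in control 2, at 6.35 and 4.74. Among genes of maturation and release, Nlrp3, the inflammasome sensor, had 4.34 and 11.6 with CpG, against 3.42 and 14.5 without. Nlrc4, which forms the inflammasome that responds to bacterial flagellin, had 4.27 in CpG 2 and 5.59 in control 2. Casp4, the caspase that senses cytosolic lipopolysaccharide, had 16.3 in control 2 alone, and Casp8 5.46 there alone. Among signalling genes, Myd88, the adaptor, had 6.58 and 9.95 with CpG, against 8.94 and 7.27 without. Irak3, an inhibitory member of the kinase family, had 5.83 in CpG 2, against 4.53 and 6.58 in the control libraries. Irak4, the kinase recruited by MyD88, had 5.79 in CpG 2, against 3.69 in control 1, and Irak1 had 6.89 in CpG 2 alone. No promoter-class peak was listed in any library for 9 of the 22 genes: Il33, Il1f10, Il1rl1, Casp1, Gsdmd, Traf6, Tollip, Tab1 and Tab2.

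**Figure D5:**
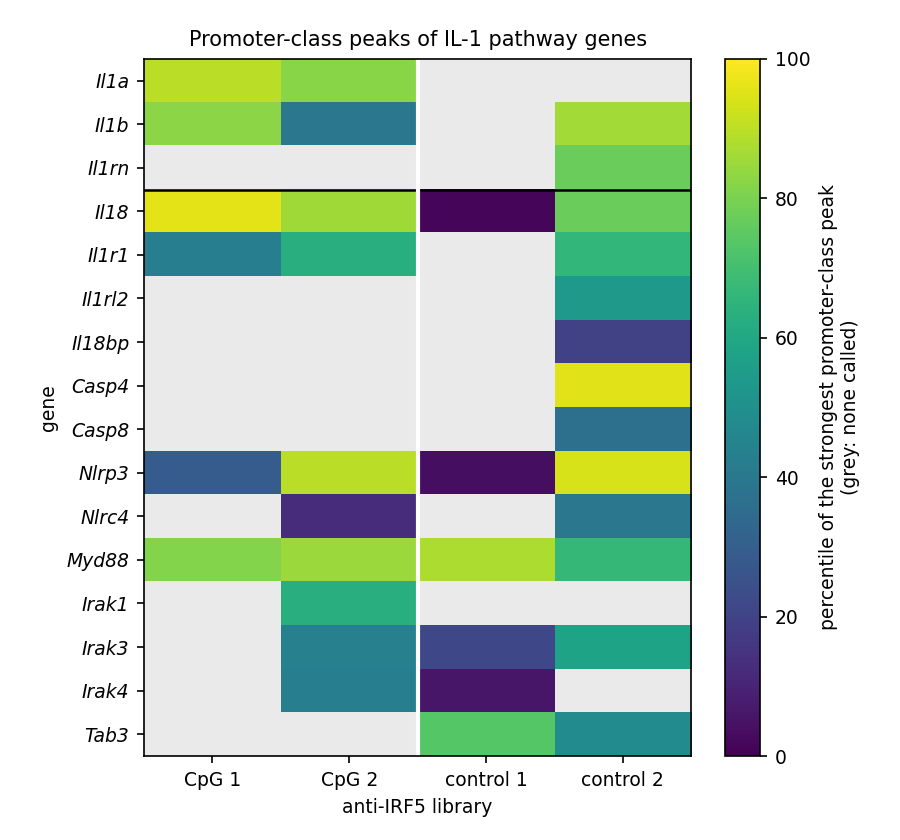
Percentile by fold enrichment, within the library's list, of the strongest promoter-class peak of Il1a, Il1b, Il1rn and the 13 pathway genes with such a peak (rows) in each library (columns, CpG left of control), with grey where none was called. Il1a is coloured in the CpG libraries and grey in the control libraries, and Myd88, Nlrp3 and Il18 are coloured in every column.

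Genes with the pattern most like each member were found by the mean absolute difference, over the 4 libraries, of the percentile of a gene's strongest peak. For Il1a they included Igsf5 (1.87 percentile points) and Mir7665 (3.04). For Il1b they were Gm13865 (0.515), Il10 (0.540), the gene of an anti-inflammatory cytokine, and Gm33103 (0.787). For Il1rn they were Tlr5 (2.77), the flagellin receptor, Siglecf (2.89) and Ambp (3.03). With 4 libraries as the only points, these distances describe likeness of rank and no more.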

How the data were processed

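Anti-IRF5 CUT&Tag had been done on 4 libraries, 2 with CpG and 2 with PBS. Per the submitters' processing notes, the tools were MACS2 2.1.0, ChIPseeker, BWA 0.7.12 and fastp 0.20.0. No source used here names a genome build. The authors deposited a peak list for each library and each condition, with a pileup signal at the summit, −log10 p-values and −log10 q-values, and a fold enrichment, which is the ratio of pileup plus 1 to background plus 1. Background was recovered from these deposited signal and fold columns. Relative depth was the lowest background of a list over the length of its shortest peak. The worth of 1 IgG fragment was fitted to backgrounds clearly above the floor and below a set ceiling. Of these, 62.1% (CpG 1), 60.4% (CpG 2), 54.7% (control 1) and 54.6% (control 2) were whole multiples of it (tolerance 0.004). IgG fragments were then assigned to peaks with a tolerance of 0.008. Fragment counts cover counting error only.

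Python 3.11.15 with pandas 2.3.3 and NumPy 2.4.6 was used, and the joining of peaks was tested on simulated data. Peaks outside the 21 nuclear chromosomes, 12 to 17 in a list, were left out. Gene start positions were those of the files. Only 3.12% of 16324 matched genes started within 1 kb of their GRCm38 position, so RefSeq coordinates apply to printed sequences alone. The members and gene lists were chosen with earlier results of these data known. Named were the 3 genes, the pathway genes that the files name, nearest genes within 100 kb, and the 3 genes most alike in pattern to each member. One result of the last kind is not reported here. Alternatives covered equal list lengths, a stricter q-value, joining of gaps, distance to the start, the condition lists and leaving out each library. If the libraries of a condition are technical replicates, their SD measures technical spread.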

Additional observations from a re-analysis of the deposited data

How the results depend on the processing

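The difference in member peaks per library, CpG minus control, was -2.5 and turned to 0.5 when every list was shortened to its 13553 strongest peaks. It ranged from -5 to 0 when each library was left out in turn. At equal list length the 13 joined regions became 6, and the 3 regions in all 4 libraries became 1. Joining gaps of up to 500 bp gave 8 regions, as did the condition lists, and leaving out 1 library gave 8 (without control 2) to 13. The count called with CpG only was 1, and 2 without CpG 1 or without control 2, while the control-only count was 0, became 3 in the condition lists, and was 0 to 6 with 1 library left out (6 without control 1, 2 without control 2, 1 without CpG 2). The regions shared by all libraries numbered 2 to 4 with 1 left out. The share of libraries with a promoter-class peak, CpG minus control, was 1 for Il1a and 0.5 when only summits within 1 kb of the start counted. For Il1b it was 0.5, and 0 at equal list length, within 1 kb and in the condition lists, with a range of 0 to 1 over libraries left out. For Il1rn it was -0.5, and -1 in the condition lists, with a range of -1 to 0. Beyond what each alternative's own construction shows, the cause was not tested. Of 72 values under alternatives, 1 changed sign and 20 moved by more than a tolerance. The tolerance was a ratio of 1.5 for counts of regions and the SD between libraries for differences, which at 2.69 peaks is wide enough to take in -5 and 0. No paired analysis was possible because the labels do not say that equal replicate numbers mark a shared animal or culture. No fit or test of any kind was made on values that the choice of genes used. Heights where a library has no call are known only in part, from the condition lists, and most member peaks of the library lists rest on 10 to 30 fragments.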
